A study of Mus musculus with 8 samples.

Results

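The genes described here carry dietary fat from the gut lumen into chylomicrons, and 10 were chosen by name: Apob, Mttp, Apoa1, Apoa4, Apoc2, Apoc3, Fabp1, Fabp2, Cd36 and Dgat1. They are 10 of the 12393 genes that the array could name; all had a probe set, 18 in all, and all 18 passed the filter on low signal, which left 13638 tested probe sets. Small intestine was taken from 6-week-old female C57/Black6 mice after daily intraperitoneal injection for 5 days, and Affymetrix arrays were hybridised with its RNA. The vehicle group received dimethyl sulfoxide alone, the dexamethasone group 15 mg/kg of this synthetic glucocorticoid, the DBZ group 10 umol/kg of this gamma-secretase inhibitor, and the combination group both drugs at those doses. All mice shared strain, sex, age and route, and no transgene or deletion is described. The design states n = 2 for each of 4 groups of treated mice, but the 2 DBZ columns held identical values in 22684 of 22690 probe sets. They were counted as 1 array, which leaves 7 distinct arrays and n = 1 for DBZ. Nothing in the labels says from which segment of the small intestine a sample came, and no label ties an array to a single mouse, so p-values measure the spread between these arrays, which may be technical.

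Long-chain fatty acids and monoglycerides from digested fat enter enterocytes, where cytosolic binding proteins carry them to the endoplasmic reticulum. There they are rebuilt into triglyceride and loaded by the microsomal transfer protein onto apolipoprotein B. The particle then takes up smaller apolipoproteins and leaves the cell as a chylomicron into the lymph. Gamma-secretase releases the active part of Notch receptors, and its inhibition is known to shift intestinal progenitors toward secretory cells, whereas the fat-absorbing enterocyte belongs to the absorptive lineage.

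Upstream sequences are shown for Apob, Apoc2 and Fabp1, the genes in which the change seen with DBZ differed between arrays with and without dexamethasone (values below). They are from RefSeq on GRCm38.p6, 5′ to 3′ along the gene, and stop at the last base before the annotated gene. Capitals mark matches to TATAAA, the TATA box, or to the direct repeat called DR1, which is 2 copies of AGGNCA 1 base apart, a form of the element that nuclear receptors such as Hnf4a can bind.
Apob, chr12:7977427-7977628, plus strand: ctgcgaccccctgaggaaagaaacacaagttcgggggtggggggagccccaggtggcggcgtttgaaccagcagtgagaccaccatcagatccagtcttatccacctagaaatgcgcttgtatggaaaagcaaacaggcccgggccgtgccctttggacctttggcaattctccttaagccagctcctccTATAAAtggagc
Apoc2, chr7:19677942-19678191, minus strand: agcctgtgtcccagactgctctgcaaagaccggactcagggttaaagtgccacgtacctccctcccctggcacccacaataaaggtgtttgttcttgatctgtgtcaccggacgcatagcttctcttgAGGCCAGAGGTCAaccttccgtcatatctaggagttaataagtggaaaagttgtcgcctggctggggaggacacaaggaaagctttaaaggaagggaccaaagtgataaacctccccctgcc
Fabp1, chr6:71199629-71199878, plus strand: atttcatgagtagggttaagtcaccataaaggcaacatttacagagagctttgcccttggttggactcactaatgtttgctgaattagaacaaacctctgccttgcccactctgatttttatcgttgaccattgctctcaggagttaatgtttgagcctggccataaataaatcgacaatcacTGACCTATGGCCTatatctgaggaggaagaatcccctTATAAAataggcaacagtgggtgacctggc
Counted from the start site of the RefSeq promoter table, the repeat lay at -122 to -110 in Apoc2 and, on the opposite strand, at -67 to -55 in Fabp1. The TATA box lay at -60 to -55 in Apob and at -30 to -25 in Fabp1. For Apob the annotated gene begins before that start site, so 202 of the 250 upstream bases are shown. The table held promoters of 8 of the 10 genes, from 250 bases before to 50 after the start. Of these 8, 2 held the repeat and 2 the TATA box, searched on both strands, whereas 0.381% and 13.6% of all 32851 promoters of that length did. The Hnf4-type site CAAAGTCCA, a site of Hnf1 and the GATA factor motif AGATAA were also searched for. These were in 0 of the 8 and in 0.475%, 0.399% and 11.2% of all promoters. The repeat and the Hnf4-type site can overlap.

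The vehicle arrays stood apart from the treated arrays, which bears on every comparison with vehicle. Their trimmed mean signal as deposited was 500.2, that of the 5 other arrays 250.1, and the scaling used here set each to 250. Without that scaling the median log2 change over all probe sets was -0.92 for dexamethasone, -0.999 for DBZ and -0.99 for the combination against vehicle, so every change given below is relative to the scaled mean of the array. Spearman correlations were 0.892 to 0.928 between a vehicle and a treated array, 0.939 to 0.972 between treated groups and 0.960 to 0.970 within groups. The ratios of 3' to 5' signal, a measure of RNA integrity, were highest in the DBZ array, at 1.80 for Gapdh and 2.17 for beta-actin, against 0.905 to 1.22 and 1.22 to 1.79 elsewhere. Of 7 enterocyte markers 5 were measured, and all 5 passed the filter; they summed to 27131 to 27352 in vehicle arrays, 18076 to 20439 after dexamethasone, 26729 after DBZ, and 23385 to 26140 after both drugs. The structural protein villin (Vil1) had mean signals of 6082 with vehicle, 5910 after dexamethasone, 7292 after DBZ, and 7132 after both drugs. The 8 markers of the proximal small intestine summed to between 12368 and 15417 in vehicle arrays but to between 682 and 1794 after treatment. The 6 measured ileal markers of 7 summed to between 1346 and 1603, and to between 5543 and 21672 after treatment. The 5 smooth muscle markers summed to between 5608 and 7659, and to between 11668 and 17865 after treatment. Reg1 alone gave 7193 and 8090 of the proximal sums with vehicle. With dexamethasone 6 of 7 tested proximal markers were lower and 5 of 6 ileal ones higher at limma's adjusted p under 0.05. The exceptions were Slc40a1 and Slc51a. Slc40a1 had 519 and 39.6 in the dexamethasone arrays against 139 and 140 with vehicle. Slc51a had 1569 and 2404 in the dexamethasone arrays, above 1353 and 1170 with vehicle, but did not pass (limma's adjusted p = 0.0984). Its vehicle and combination arrays overlapped. Since all treated arrays differ from all vehicle arrays in these sums, treatment and position along the intestine cannot be told apart in any comparison with vehicle. In whole tissue, fewer cells of a type and less RNA per cell cannot be told apart.

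Signals below are scaled array intensities, and a change is a difference of group means of log2(signal + 12.3) with its SE; a gene rose or fell where limma's Benjamini-Hochberg adjusted p over all 13638 probe sets was under 0.05. Where a gene had several probe sets, the one with the highest mean signal is its main one. Dexamethasone alone went with lower signal of the chylomicron scaffold, of an apolipoprotein, of a fatty acid binding protein and of the fatty acid receptor. Of the 10 genes, 4 fell (Apob, Apoc2, Fabp1 and Cd36) and 0 rose, against 4.82% of all tested probe sets called lower. The median log2 change of the 10 was -0.63, with 0.02 over all tested probe sets. In 8 of the 10 both dexamethasone arrays lay below both vehicle arrays, as they did in 26.7% of all probe sets; the exceptions were Fabp2 and Dgat1. With DBZ alone 2 of the 10 fell (Apob and Apoc2), against 4.6% of all probe sets called lower, and the median was -0.23. With the combination limma called 0 of the 10 (2 at unadjusted p under 0.05), against 7.44% of all probe sets called in either direction, and the median was -0.04.

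**Figure D1:**
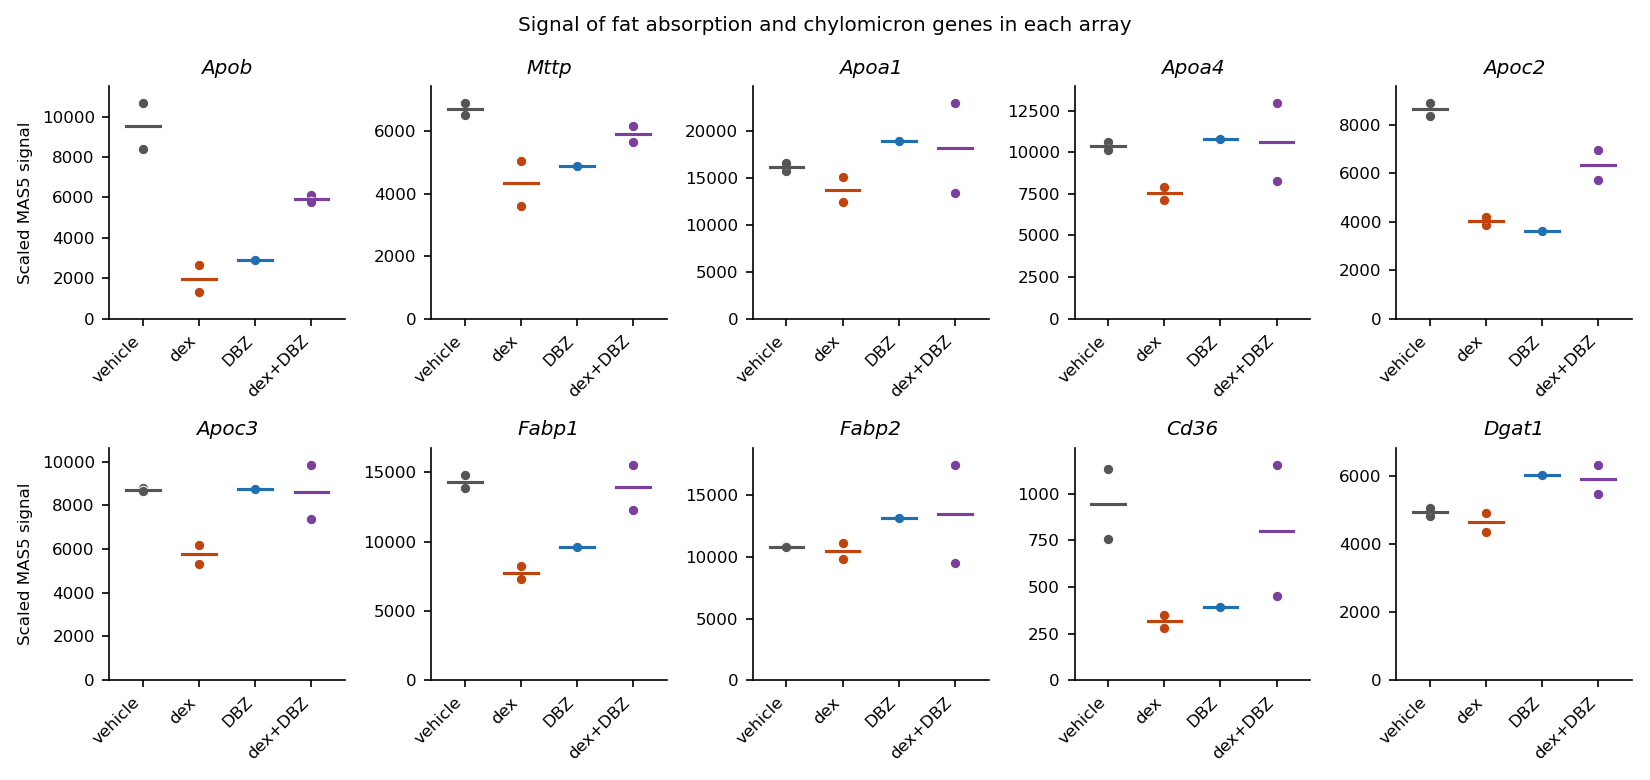
Scaled MAS5 signal (vertical axes, from 0) of the main probe set of each of the 10 genes in each array; points are arrays, lines are group means, and DBZ is 1 array (dex, dexamethasone; dex+DBZ, combination). For Apob the vehicle arrays lie at 8395 and 10663, the dexamethasone arrays at 1323 and 2640, and the combination arrays at 6112 and 5773.

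Apob encodes the apolipoprotein B scaffold on which each chylomicron is built. Its probe set, 1455593_at, had signals of 8395 and 10663 with vehicle, 1323 and 2640 after dexamethasone, 2896 after DBZ, and 6112 and 5773 after both drugs. All 5 treated arrays lay below both vehicle arrays, and both combination arrays lay above the arrays of either drug alone. Apob fell by 2.33 ± 0.29 on the log2 scale with dexamethasone (SE, n = 2 per group, adjusted p = 0.00152), to 20.8% of the vehicle mean. With each of the 6 arrays other than DBZ left out in turn the change stayed between -2.83 and -1.84 and past the threshold. With DBZ it fell by 1.70 ± 0.35 (1 array against 2, adjusted p = 0.0206), to 30.4% of the vehicle mean. This call ended without vehicle replicate 2 (-1.53), without the filter on low values (adjusted p = 0.0545) and without the intensity trend (adjusted p = 0.0509). The combination gave -0.67 ± 0.29 against vehicle and did not pass (adjusted p = 0.187). In the order vehicle, combination, DBZ, dexamethasone, no neighbouring groups differed past the threshold.

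Mttp, the microsomal transfer protein that lipidates apolipoprotein B, had a smaller difference in the same order of groups. Its main probe set, 1419399_at, had signals of 6905 and 6528 with vehicle, 3607 and 5062 after dexamethasone, 4886 after DBZ, and 5649 and 6186 after both drugs. The vehicle arrays were the highest and did not overlap the others, and the DBZ array lay between the dexamethasone arrays. The log2 change with dexamethasone was -0.65 ± 0.20 (adjusted p = 0.0631) and did not pass, whereas the second probe set gave -0.83 ± 0.17 (adjusted p = 0.0147) and did. With DBZ the probe sets gave -0.46 ± 0.24 and -0.43 ± 0.21, and with the combination -0.18 ± 0.20 and -0.33 ± 0.17, and none of these passed.

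Apoc2 encodes the cofactor that activates lipoprotein lipase. Its probe set, 1418069_at, had signals of 8367 and 8881 with vehicle, 3856 and 4184 after dexamethasone, 3617 after DBZ, and 6953 and 5723 after both drugs. The groups did not overlap, with vehicle highest, then the combination, dexamethasone and DBZ. Apoc2 fell after either drug, with log2 changes of -1.10 ± 0.18 for dexamethasone (adjusted p = 0.00499) and -1.25 ± 0.22 for DBZ (adjusted p = 0.0112). Both calls held with each of the 6 other arrays left out, the highest adjusted p being 0.0499 and 0.0463; the single DBZ array, on which the DBZ change rests, could not be left out. The combination had -0.45 ± 0.18 against vehicle (adjusted p = 0.158), and DBZ against dexamethasone gave -0.15 ± 0.22 (95% interval -0.64 to 0.34).

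Apoa1, Apoc3 and Apoa4 are neighbours on chromosome 9 and encode surface apolipoproteins; Apoc3 restrains lipoprotein lipase, and Apoa4 is secreted with chylomicrons after a fatty meal. Apoc3, read by 1418278_at, had signals of 8787 and 8656 with vehicle, 5330 and 6175 after dexamethasone, 8750 after DBZ, and 7387 and 9858 after both drugs. Both dexamethasone arrays were the lowest, and the DBZ array lay between the vehicle arrays. The log2 change with dexamethasone was -0.60 ± 0.20 (adjusted p = 0.0798) and did not pass, though it did with quantile normalisation (-0.47, adjusted p = 0.0286). The main probe set of Apoa4, 1436504_x_at, had 10597 and 10134 with vehicle, 7140 and 7922 after dexamethasone, 10798 after DBZ, and 8269 and 12948 after both drugs. The dexamethasone arrays were again the lowest, while the combination arrays lay on either side of vehicle. Its log2 change with dexamethasone was -0.46 ± 0.23 (adjusted p = 0.231), and the other probe set gave -0.71 ± 0.18 (adjusted p = 0.0335), which passed. The main probe set of Apoa4 is of a kind that can hybridise with related transcripts. With DBZ Apoc3 had 0.00 ± 0.24 and Apoa4 0.06 ± 0.28, both of which turned lower with the intensities as deposited (-0.99 and -0.94).

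Apoa1, the main protein of high-density lipoprotein, was measured by 4 probe sets. The main one, 1419232_a_at, had 15807 and 16639 with vehicle, 12424 and 15152 after dexamethasone, 18968 after DBZ, and 13369 and 23007 after both drugs. The combination arrays lay further apart than any of the group means, and they spanned all the others except the lowest dexamethasone array. In every array this probe set had the highest signal of all, and whether probe sets this bright show changes in full was not tested. The dexamethasone changes of the 4 probe sets ran from -0.24 to -0.17, none past the threshold, with a 95% interval of -0.82 to 0.34 for the main one. Of these probe sets 3 are of a kind that can hybridise with related transcripts.

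Of the fatty acid binding proteins of enterocytes, Fabp1 fell with dexamethasone and Fabp2 did not pass. The difference between them was not tested. Fabp1, which is shared with liver and was read mainly by 1417556_at, had signals of 13847 and 14789 with vehicle, 8212 and 7289 after dexamethasone, 9629 after DBZ, and 12285 and 15547 after both drugs. The dexamethasone arrays were lowest, DBZ next, and vehicle and combination overlapped. Fabp1 fell by 0.89 ± 0.20 with dexamethasone (adjusted p = 0.0186), and the second probe set gave -0.86 ± 0.21 (adjusted p = 0.0303). The call of the main probe set ended when either vehicle array (-0.93 and -0.84) or either dexamethasone array (-0.97 and -0.80) was left out, and without the filter (adjusted p = 0.0724). With DBZ the probe sets disagreed, at -0.57 ± 0.24 (adjusted p = 0.166) and -0.01 ± 0.26. Fabp2, the form restricted to intestine, read by 1418438_at, had 10863 and 10803 with vehicle, 9872 and 11156 after dexamethasone, 13146 after DBZ, and 9520 and 17495 after both drugs. The combination arrays spanned all the others, the vehicle arrays lay between the dexamethasone arrays, and the change with dexamethasone was -0.05 ± 0.27 (95% interval -0.64 to 0.55).

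Cd36, a fatty acid receptor of the brush border that adipocytes, endothelium and macrophages also express, had 3 probe sets. The main one, 1450883_a_at, had signals of 755 and 1134 with vehicle, 352 and 282 after dexamethasone, 391 after DBZ, and 1156 and 450 after both drugs. The arrays of the single drugs were the lowest, and the combination arrays lay apart from each other, with replicate 1 above both vehicle arrays and replicate 2 below them. Cd36 fell by 1.52 ± 0.37 with dexamethasone (adjusted p = 0.0284), to 33.6% of the vehicle mean, and the other probe sets changed by -1.82 ± 0.31 and -1.86 ± 0.36. The call of the main probe set ended without vehicle replicate 2 (-1.23) or either dexamethasone array (-1.67 and -1.36), without the filter (adjusted p = 0.0604) and without the intensity trend (adjusted p = 0.0639). DBZ alone gave -1.22 ± 0.45, which missed the threshold (adjusted p = 0.127). The 5 measured adipocyte markers summed to 699 to 1485 with vehicle and 2288 to 2782 with dexamethasone, and the 6 macrophage markers to 1292 to 2162 and 2323 to 2692, both opposite in direction to Cd36. The 5 measured endothelial markers summed to 244 to 319 and 272 to 318. Their part in the Cd36 result was not tested.

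Dgat1, which joins the last fatty acid to form triglyceride and was read by 1418295_s_at, had signals of 4820 and 5053 with vehicle, 4340 and 4917 after dexamethasone, 6036 after DBZ, and 5459 and 6324 after both drugs. Vehicle and dexamethasone overlapped and lay below the other arrays. The log2 changes were -0.10 ± 0.17, 0.29 ± 0.21 and 0.25 ± 0.17 with dexamethasone, DBZ and the combination, and none passed. The values for DBZ and the combination turned lower with the intensities as deposited (-0.71 and -0.75).

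**Figure D2:**
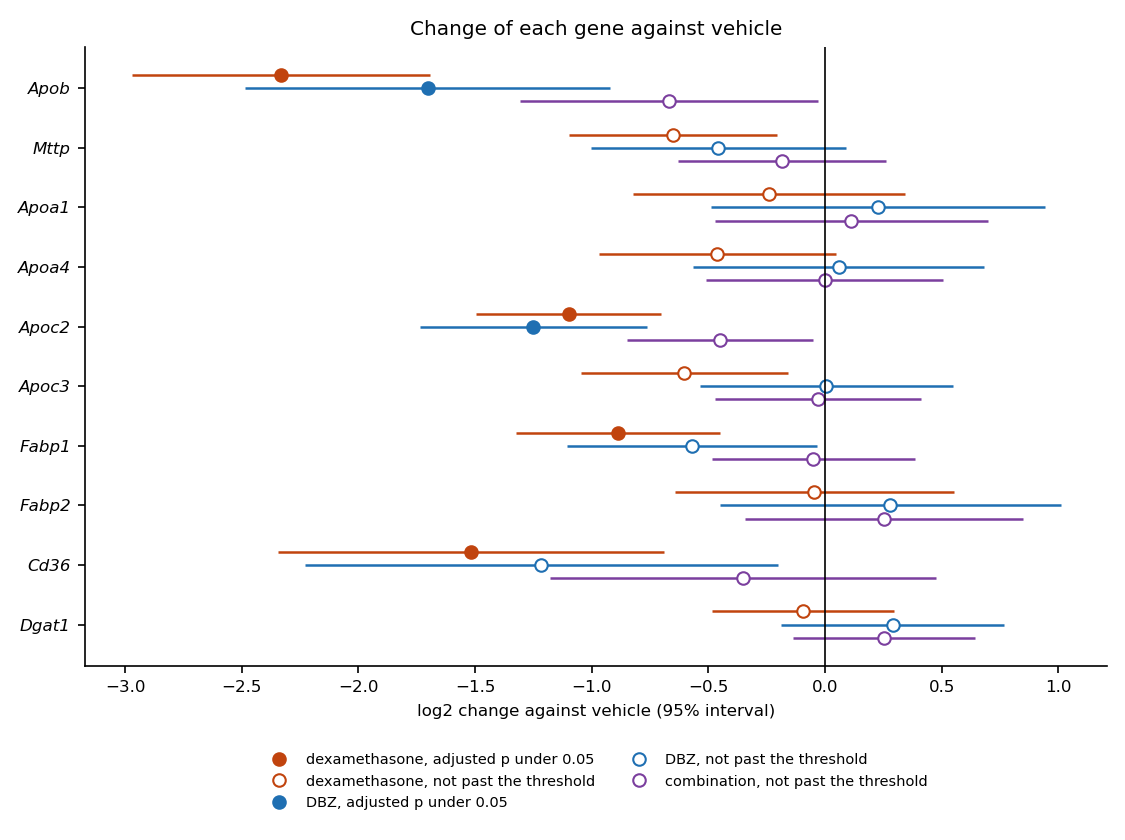
Log2 change of each gene against vehicle (horizontal axis, with 95% interval) for dexamethasone, DBZ and the combination; filled points passed an adjusted p of 0.05. Apob, Apoc2, Fabp1 and Cd36 passed with dexamethasone, Apob and Apoc2 with DBZ, and none with the combination.

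Adding DBZ to dexamethasone went with higher estimates for every one of the 10 genes, none of which passed. The log2 changes of the combination against dexamethasone ran from 0.30 to 1.66 with a median of 0.52, against -0.06 over all tested probe sets. The direction did not hold throughout. With 1 array left out, the lowest estimates were -0.04 for Apoa1, -0.14 for Fabp2 and 0.14 for Apoa4. Limma called 0 of the 10 (6 at unadjusted p under 0.05), in a comparison where 0.0293% of all probe sets were called in either direction. In 8 of the 10 both combination arrays lay above both dexamethasone arrays, as they did in 16.9% of all probe sets; Apoa1 and Fabp2 were the exceptions. Apob had 1.66 ± 0.29 (adjusted p = 0.104), the group means being 5942 and 1981. It passed without dexamethasone replicate 2 (2.16, adjusted p = 0.00309) but was 1.17 without dexamethasone replicate 1 (adjusted p = 0.436), and the adjusted p reached 0.660 without combination replicate 1. Cd36 had 1.17 ± 0.37 (adjusted p = 0.388), which was 0.50 without combination replicate 1 and 1.83 without combination replicate 2. Fabp1 had 0.84 ± 0.20 (adjusted p = 0.216) and Apoc2 0.65 ± 0.18 (adjusted p = 0.304). The enterocyte markers, like the 10 genes, were lower after dexamethasone, with sums of 18076 to 20439, than after both drugs, with 23385 to 26140. The proximal markers summed to 682 to 1211 with dexamethasone and 1076 to 1794 with the combination, and the ileal markers to 9177 to 18245 and 5543 to 7187. Their part in these differences was not tested.

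Adding dexamethasone to DBZ was measured against the single DBZ array. Limma called 0 of the 10 genes (2 at unadjusted p under 0.05), where 0.33% of all probe sets were called. Apob had 1.03 ± 0.35 (adjusted p = 0.273) and Apoc2 0.80 ± 0.22 (adjusted p = 0.184), and the median of the 10 was 0.12. DBZ against dexamethasone also gave 0 calls (1 at unadjusted p under 0.05; 0.337% of all probe sets called), with Apoc3 at 0.61 ± 0.24 and Apob at 0.63 ± 0.35. The 95% interval for Apob was -0.15 to 1.41.

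The change seen with DBZ in Apob, Apoc2 and Fabp1 differed between arrays with and without dexamethasone. Without dexamethasone it is measured against the vehicle arrays, so treatment and position along the intestine cannot be told apart there. The test was the interaction, the change of the combination against dexamethasone minus that of DBZ against vehicle, whose 2 sides share no array. It was past the threshold in 3 of the 10 genes, all with a positive value, against 2.07% of all tested probe sets called in that direction, and the median of the 10 was 0.75, with 0.00 over all. For Apob the interaction was 3.37 ± 0.45 (adjusted p = 0.00614), the DBZ change being -1.70 without and 1.66 with dexamethasone. For Apoc2 it was 1.90 ± 0.28 (adjusted p = 0.00873), from -1.25 and 0.65. Both passed with each of the other 6 arrays left out, with ranges of 2.87 to 3.86 and 1.76 to 2.04, but every interaction rests on the single DBZ array, which could not be left out. For Fabp1 it was 1.41 ± 0.31 (adjusted p = 0.0379). That call ended without any one of the vehicle (1.45 and 1.36) or dexamethasone arrays (1.49 and 1.32), without the filter (adjusted p = 0.126) and without the intensity trend (adjusted p = 0.0758), and the second probe set gave 0.91 ± 0.34 (adjusted p = 0.166).

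**Figure D3:**
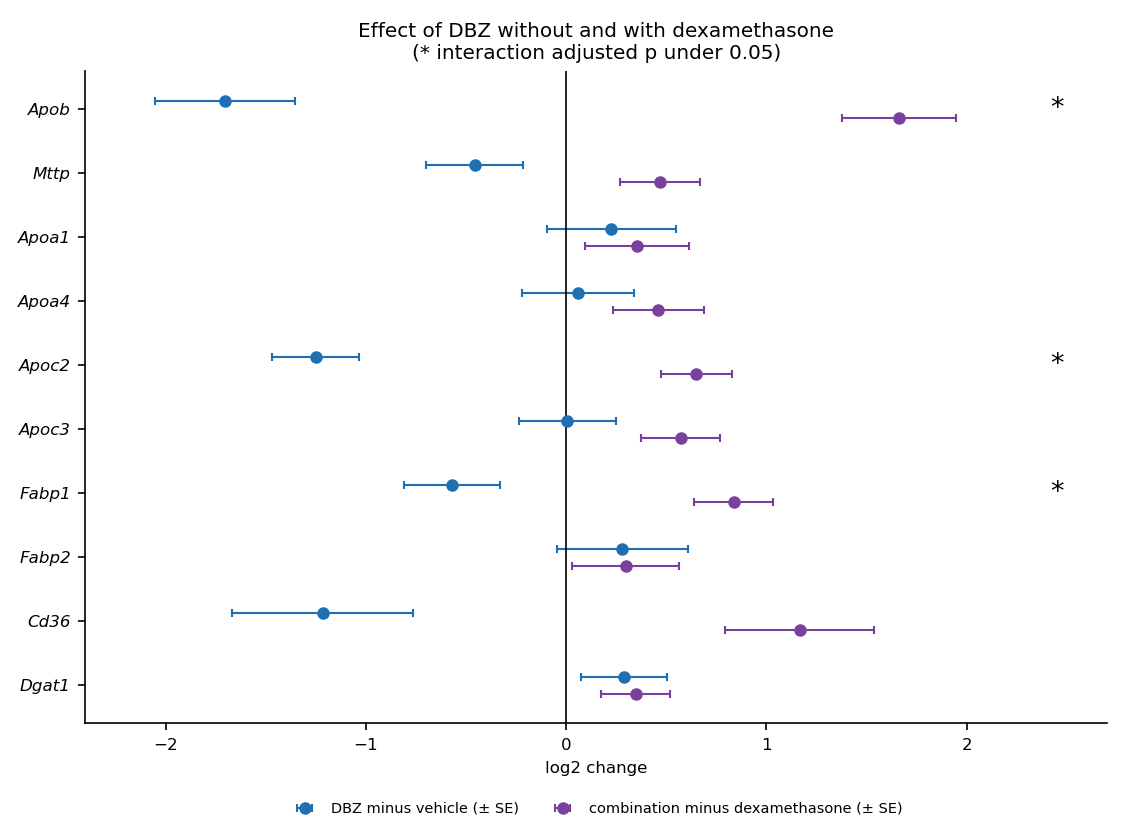
Log2 change with DBZ (horizontal axis, ± SE) in the absence of dexamethasone (DBZ minus vehicle) and in its presence (combination minus dexamethasone) for each gene; asterisks mark an interaction past the threshold. For Apob the estimates lie at -1.70 and 1.66, whereas for Dgat1 they lie at 0.29 and 0.35.

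Cd36 had an interaction of 2.38 ± 0.59 that narrowly missed the threshold (adjusted p = 0.0535), and of its other probe sets 1 passed at 2.93 ± 0.50 (adjusted p = 0.0162) and 1 did not at 2.24 ± 0.57 (adjusted p = 0.0596). The main value was 1.71 without combination replicate 1 and passed at 3.05 without combination replicate 2 (adjusted p = 0.0234). Mttp had 0.92 ± 0.32 (adjusted p = 0.137). Apoa1, Fabp2 and Dgat1 had 0.13 ± 0.41, 0.02 ± 0.42 and 0.06 ± 0.28, with 95% intervals of -0.79 to 1.05, -0.92 to 0.96 and -0.56 to 0.67. The vehicle arrays enter every interaction, so a lower level shared by all treated arrays gives a positive value by itself. Of 7 proximal markers tested 6 had an interaction past the threshold and positive in sign. Among them were Reg1 (6.29 ± 0.40), Cyp2c29 (5.86 ± 0.73), Slc46a1 (3.42 ± 0.47) and Adh4 (3.37 ± 0.44). The DBZ changes without and with dexamethasone were -6.15 and 0.14 for Reg1, and -2.76 and 0.62 for Adh4. They were -3.03 and 2.84 for Cyp2c29, -2.30 and 1.13 for Slc46a1, and -1.70 and 1.66 for Apob. All 6 ileal markers tested were past the threshold and negative, and Fabp6 had -12.12 ± 0.62, whose size depends on the pseudocount because its vehicle signals were 0.640 and 1.22. The part of these markers in the interactions of Apob, Apoc2 and Fabp1 was not tested.

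The wider pathway was described with 89 further genes chosen by role, of which 76 had a probe set and 69 were tested. With dexamethasone 7 of these rose and 11 fell, with DBZ 5 rose and 8 fell, and with the combination 3 rose and 9 fell, the medians being -0.06, 0.00 and 0.03. The shares of all probe sets called higher and lower were 7.22% and 4.82% with dexamethasone, 3.74% and 4.6% with DBZ, and 4.38% and 3.06% with the combination.

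Among the genes of uptake and activation, 16 were tested; 2 rose and 4 fell with dexamethasone, 1 rose and 2 fell with DBZ, and 1 rose and 4 fell with the combination. Rbp2, the retinol binding protein of enterocytes, had mean signals of 9225 with vehicle, 2647 after dexamethasone, 4228 after DBZ, and 4706 after both drugs. It changed by -1.80 ± 0.18 with dexamethasone (adjusted p = 0.000619) and by -0.96 ± 0.18 with the combination (adjusted p = 0.0140). Slc27a2, a very-long-chain acyl-CoA synthetase, fell in all 3 treated groups, with log2 changes of -2.05 ± 0.24, -1.57 ± 0.30 and -1.29 ± 0.24 for dexamethasone, DBZ and the combination. Abcg8, a subunit of the exporter that returns sterols to the lumen, fell by 1.54 ± 0.18 with dexamethasone. A gene that rose in each treated group was Fabp6, the bile acid binding protein of the ileum, with mean signals of 0.928 with vehicle, 6669 after dexamethasone, 11866 after DBZ, and 1153 after both drugs. It was also the only gene of this group to pass against DBZ, where the combination gave -3.35 ± 0.48 (adjusted p = 0.0446).

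Of 12 genes of lipid resynthesis 2 fell with dexamethasone and 0 rose (5 at unadjusted p under 0.05). Chpt1, a choline phosphotransferase of phosphatidylcholine synthesis, fell in all 3 treated groups, with changes of -1.72 ± 0.21, -1.78 ± 0.25 and -1.35 ± 0.21. The other gene to fall with dexamethasone was Dgat2, the second enzyme that forms triglyceride, at -1.05 ± 0.24 (adjusted p = 0.0201). Of 20 genes of chylomicron assembly and export 1 rose and 1 fell with dexamethasone. Apoe, which macrophages and many other cells secrete, rose in all 3 treated groups, by 2.01 ± 0.26, 2.00 ± 0.31 and 1.92 ± 0.26, from a vehicle mean of 115. Apoa2, an apolipoprotein of high-density lipoprotein, fell with dexamethasone (-1.82 ± 0.31, adjusted p = 0.00637) and with the combination (-1.69 ± 0.31, adjusted p = 0.0132), and had -1.09 ± 0.38 with DBZ (adjusted p = 0.107). Of the 2 lipases and cofactors of the lumen that were tested, Pnliprp2, a pancreatic lipase-related protein, rose by 1.04 ± 0.28 with dexamethasone (adjusted p = 0.0401) and by 1.92 ± 0.28 with the combination, from means of 368 to 794 and to 1410. Of 7 genes of lipoprotein clearance and storage lipases 2 rose with dexamethasone, Lpl (2.33 ± 0.48, adjusted p = 0.0136), which releases fatty acids from chylomicrons in peripheral tissue, and Vldlr (adjusted p = 0.0195), a lipoprotein receptor. The adipocyte markers Adipoq (2.24 ± 0.57, adjusted p = 0.0325) and Fabp4 (1.55 ± 0.41, adjusted p = 0.0367) also rose with dexamethasone, and their part in the Lpl result was not tested. With DBZ 1 of the 7 rose, Angptl4 (1.56 ± 0.40, adjusted p = 0.0415), an inhibitor of that lipase, and with the combination limma called 0 of them (1 at unadjusted p under 0.05). Dgat2, Vldlr, Hnf4a, the position and adipocyte markers, and Apoa2, Pnliprp2, Gata4, Cdx2, Lpl and Angptl4 in comparisons where the rule did not name them, were named after their values were seen.

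Of 12 transcription factors tested, 4 fell and 1 rose with dexamethasone, 4 fell and 1 rose with DBZ, and 3 fell and 0 rose with the combination (8 at unadjusted p under 0.05). Hnf4g, a nuclear receptor of enterocytes, had mean signals of 1152 with vehicle, 248 after dexamethasone, 276 after DBZ, and 536 after both drugs. It changed by -2.17 ± 0.25 with dexamethasone and by -2.00 ± 0.31 with DBZ, both past the threshold. Hnf4a had mean signals of 2576 with vehicle, 3456 after dexamethasone, 3341 after DBZ, and 3542 after both drugs. Gata4, which is restricted to the proximal small intestine, changed by -1.29 ± 0.20 with dexamethasone and by -1.49 ± 0.25 with DBZ, both past the threshold. Gata6 changed by -1.13 ± 0.16 with dexamethasone and by -1.98 ± 0.20 with DBZ. Nr1h4, the bile acid receptor, rose by 1.51 ± 0.25 with DBZ. Its mean signals were 179 with vehicle, 375 after dexamethasone, 534 after DBZ, and 240 after both drugs. Cdx2, which sets intestinal identity, fell in all 3 treated groups, with changes of -1.16 ± 0.19, -1.02 ± 0.24 and -0.995 ± 0.19 for dexamethasone, DBZ and the combination.

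In the interaction 7 of the 69 genes were past the threshold with a positive value and 3 with a negative one, against 2.07% and 1.93% of all probe sets. Hnf4g had 3.09 ± 0.39 (adjusted p = 0.00509), Gata6 2.40 ± 0.26, Slc27a2 2.33 ± 0.38, Chpt1 2.15 ± 0.33, Gata4 2.10 ± 0.32 and Rbp2 1.95 ± 0.29, each positive like that of Apob. Nr1h4 was negative at -2.15 ± 0.32. Adding DBZ to dexamethasone gave 0 calls among the 69 (23 at unadjusted p under 0.05), the smallest p being those of Fabp6 (-2.31 ± 0.39, adjusted p = 0.0996) and Lpl (-2.30 ± 0.48, adjusted p = 0.188).

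**Figure D4:**
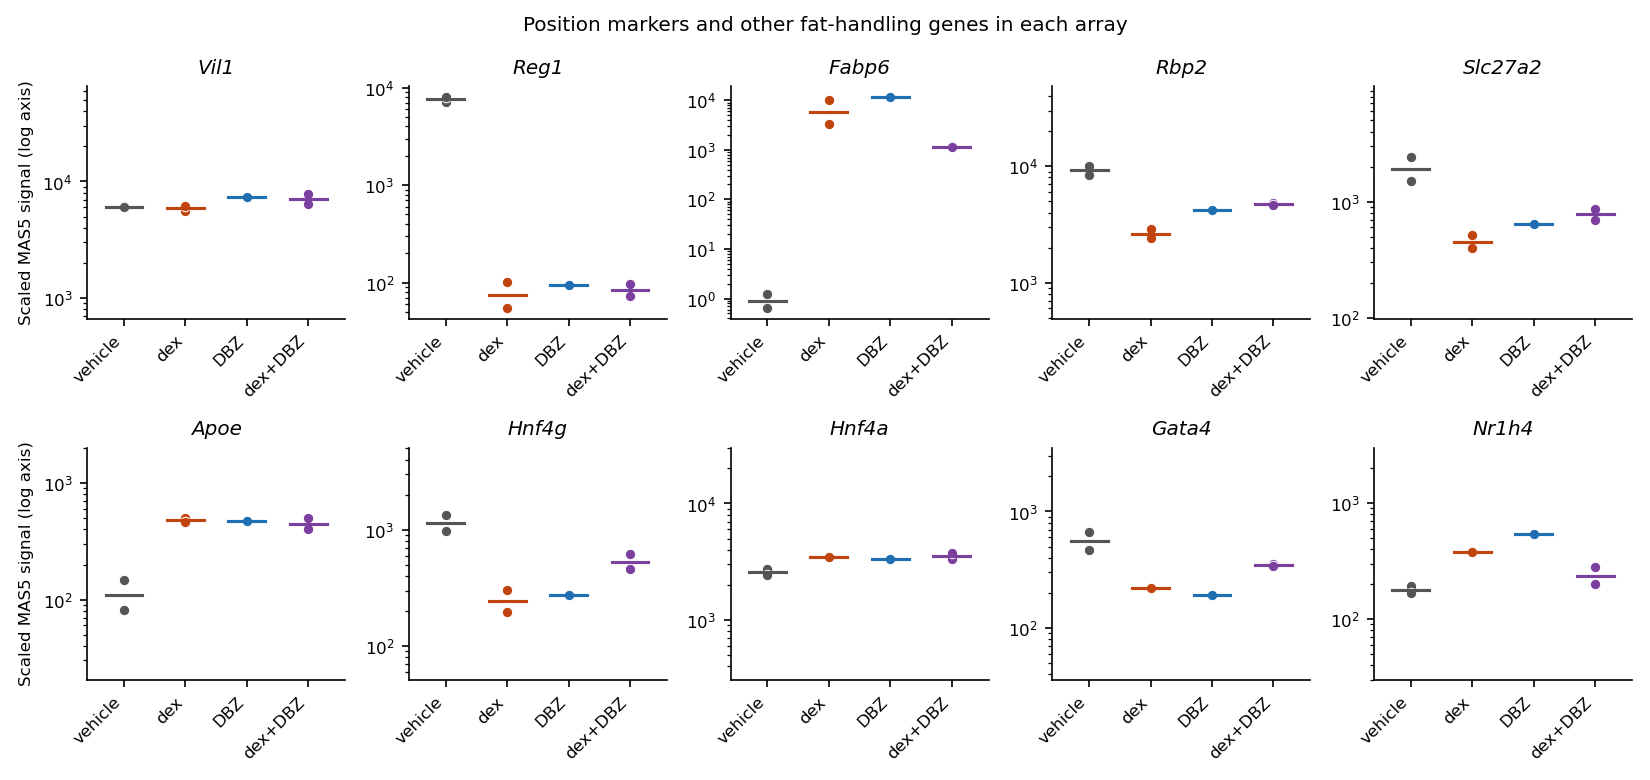
Scaled MAS5 signal (log axis) of an enterocyte marker, position markers and other fat-handling genes in each array; points are arrays and lines geometric group means (dex, dexamethasone; dex+DBZ, combination). Reg1 and Fabp6 separate the vehicle arrays from all treated arrays, whereas Vil1 lies between 5603 and 7813 throughout.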

How the data were processed

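Small intestine RNA was measured on Affymetrix arrays, and the authors summarised the arrays with MAS5, per the submitters' processing notes (no version named). Deposited values are intensities per probe set on a linear scale, without detection calls; of 8 sample columns 0 were unused. The 2 DBZ columns were averaged into 1 array, taking the listed value in 6 probe sets where 1 copy was at 0. Arrays were brought to one trimmed mean, 250 (2% cut at each end), since the deposited vehicle arrays had a higher mean. Values were log2(signal + 12.3), the pseudocount being the pooled 20th percentile, which shrinks changes of dim probe sets. Control probe sets (64) and those averaging under 38.8 (pooled 40th percentile) were left out, which left 13638.

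Group means (4) were estimated in limma 3.58.1 under R 4.3.3 (moderated test, intensity trend, 2-sided, Benjamini-Hochberg adjustment over all tested probe sets in each comparison, threshold 0.05; 3 residual and 6.83 prior degrees of freedom). For DBZ, with 1 array, the spread is borrowed from the other groups. "Rose", "fell" and "called" refer to this threshold; ± is SE. The files give no depth, and the number of arrays limits the precision. The script was tested on simulated data.

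The platform annotation gives 1 gene symbol to 20393 probe sets, several to 691 and none to 1606; 0 symbols were updated. A gene's main probe set is the one with the highest mean signal. Members and gene lists were chosen with earlier results of these data known. Of the wider pathway, up to 8 genes past the threshold with the smallest p, or else 2, were named in each comparison; Vil1, Reg1, Hnf4a and others were plotted after their values were seen. Alternatives were other scalings, pseudocounts, filters and variance models, only the groups compared, a replicate block, separate DBZ columns and each array other than DBZ left out; a fit without the vehicle arrays and a crossed block were added after seeing the data.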

Additional observations from a re-analysis of the deposited data

Results flagged for a closer look

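The results listed here differ between arrays with and without dexamethasone by the test of the difference itself. The DBZ effect with dexamethasone minus that without was 3.37 for Apob, 1.90 for Apoc2 and 1.41 for Fabp1 on the log2 scale, each with limma's adjusted p under 0.05. Every comparison without dexamethasone rests on 1 DBZ array and on the vehicle arrays, where treatment and position along the intestine cannot be told apart. The Fabp1 call also depended on single arrays and on the filter, as given above, and its second probe set did not pass (0.91 ± 0.34). Groups of 1 or 2 arrays are too small for a check of single outlying arrays.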

How the results depend on the processing

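Of 1206 recomputed log2 changes of the 10 genes, 1138 kept their side of the threshold, with the direction of every called change; 20 lost a call, 42 gained one and 6 turned lower and passed. All 6 arose with the intensities as deposited, whose vehicle arrays are not scaled to the others: Apoa4 (-0.94), Apoc3 (-0.99) and Dgat1 (-0.71) with DBZ, and Apoa1 (-0.89), Fabp2 (-0.75) and Dgat1 (-0.75) with the combination. A further 38 uncalled values changed sign and stayed uncalled. The number of the 10 genes called with dexamethasone, 4, was 10 as deposited, 2 without a filter and 3 without the intensity trend. It was 6 with separate DBZ columns, 5 with quantile normalisation and 5 with only the groups compared. It was 2 to 5 with 1 array other than DBZ left out, as in all such ranges here. With DBZ, 2, it was 8 as deposited, 1 without a filter, 1 without the intensity trend, 4 with separate DBZ columns, 4 with only the groups compared, and 1 to 2 with 1 array left out. With the combination, 0, it was 10 as deposited. The interaction, 3, gave 9 as deposited, 5 with separate DBZ columns and 2 to 4 with 1 array left out. It gave 2 without a filter, 2 without the intensity trend and 4 with the filter at the 60th percentile. The combination against dexamethasone gave 0 to 1 with 1 array left out. With separate DBZ columns the combination against DBZ and DBZ against dexamethasone gave 1 each; a repeated column understates the spread. The cause of the other moves was not tested. Without the vehicle arrays the comparisons among treated groups gave 0, as in the full fit.

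Over all probe sets, the counts called across the settings other than array removal ranged from 1082 to 10175 with dexamethasone (1642 in the reported fit), from 538 to 9356 with DBZ (1137), from 623 to 10839 with the combination (1015), from 0 to 17 for the combination against dexamethasone (4), from 0 to 1100 against DBZ (45), from 0 to 1600 for DBZ against dexamethasone (46) and from 206 to 6497 for the interaction (545). With 1 array left out the same counts were 570 to 1332, 691 to 984, 160 to 938, 0 to 104, 0 to 30, 1 to 90 and 92 to 567. With unscaled intensities, higher and lower calls numbered 201 and 9974 with dexamethasone, 129 and 9227 with DBZ, 132 and 10707 with the combination, and 6379 and 118 for the interaction, against 985 and 657, 510 and 627, 598 and 417, and 282 and 263.

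With the replicate number as a block the 10 genes gave 4, 2 and 0 calls for dexamethasone, DBZ and the combination, 0 in the comparisons among treated groups and 3 for the interaction, the same numbers as without it. Deviations of same-numbered arrays correlated at 0.05 between vehicle and dexamethasone, -0.12 between vehicle and combination and 0.11 between dexamethasone and combination. With only 2 arrays per group, these values cannot decide whether the numbers pair the samples. A crossed block for the combination against vehicle called 0 of the 10 genes and 1114 of all probe sets. The interaction has no version with only the groups compared, since it uses all groups.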

Other observations

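Of 6 hepatocyte markers 5 were measured. Albumin (Alb) lay between 2.07 and 27.8 and fibrinogen beta (Fgb) between 0.783 and 3.35 in all arrays, while alpha-fetoprotein (Afp) had 325 and 448 with vehicle and 0.523 to 90.8 in the treated arrays. Transthyretin (Ttr) had 177 and 143 with vehicle and 65.6 to 94.5 after treatment, and was called lower with dexamethasone (adjusted p = 0.0403). Tat, which did not pass the filter, had 8.27 and 7.49 with vehicle and 80.7 and 3.63 after dexamethasone. It had 2.94 after DBZ, and 3.39 and 4.71 after both drugs. Of 7 pancreatic acinar markers 4 were measured; their sum was 158 and 588 with vehicle and between 124 and 273 after treatment. By array, Lpl had 335 and 88.2 with vehicle, 1018 and 845 after dexamethasone, 247 after DBZ, and 242 and 131 after both drugs. Angptl4 had 1620 in the DBZ array and 233 to 592 elsewhere.

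The genes whose log2 values most resembled those of 3 members over the 7 arrays are given as a description, since the arrays share groups and vehicle arrays stand apart. The closest to Apob by Pearson correlation among 8084 other genes were Dnaja1 (0.98), Nfxl1 (0.98), Max (0.98), Cyp2c23 (0.98) and Msra (0.98). The closest to Apoa4 were Atp7b (0.98), Hspa8 (0.98), 1700094D03Rik (0.96), Gdi2 (0.96) and Itm2b (0.95). The closest to Cd36 were Zfp36l1 (0.98), Crat (0.98), Castor2 (0.98), Upf2 (0.97) and Pla2g6 (0.97). Among the 10 genes themselves the values were 0.96 between Apob and Mttp, 0.92 between Apob and Apoc2, 0.96 between Apoa4 and Apoc3, 0.95 between Apoa1 and Fabp2, and -0.35 between Cd36 and Fabp2.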
